A study of Mus musculus with 9 samples.

Results

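This comparison sets cultured mouse hepatic stellate cells labelled as a double knock-out of Nbr1 and Sqstm1 (double KO) against cells with a knock-out of Sqstm1 alone (Sqstm1 KO), across every gene with a normalized count of at least 10 in 3 or more of the 9 libraries of the series. Of 14020 genes with values, 10118 met that rule, and the comparison rests on 6 of the 9 libraries, 3 in each group; the other 3 are wild type (WT). Both groups lack Sqstm1 by their labels and differ by the added loss of Nbr1. All cells came from liver, were kept for 4 days in DMEM with 10% fetal bovine serum, glutamine and antibiotics, and were harvested with no treatment. The labels do not give the strain, age or sex of the mice, how the alleles were made, or whether the replicates of a group came from separate animals or cultures, so the p-values measure only the spread between these samples.

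Sqstm1 encodes p62 and Nbr1 encodes NBR1, a related selective autophagy receptor. Both bind ubiquitin and the LC3 family on the forming autophagosome, bind each other through their PB1 domains, and also act as scaffolds in signalling. Stellate cells line the sinusoids of the liver as pericytes and store retinoids when quiescent. In injury or culture they turn into contractile myofibroblasts that lay down collagen. STING is an adaptor of the endoplasmic reticulum that is switched on by cGAMP, the messenger which cGAS makes on cytosolic DNA, and leads through TBK1 and IRF3 to interferon. Interferon acts in turn through JAK kinases and factors of the STAT and IRF families on interferon-stimulated genes. By its title the series asks how NBR1 and p62 act on this pathway in stellate cells, and the 2 groups compared differ, by their labels, in the Nbr1 deletion.

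The values are read counts of genes divided by a size factor for each library, and are not divided by gene length, so levels of different genes are not compared here. The 3 Sqstm1 KO libraries held 1060809 to 1333537 counted reads and the 3 double KO libraries 873156 to 1142862. Sqstm1 KO replicate 3 stood apart from its group: its log2 values correlated at 0.847 and 0.853 with those of the other 2, which correlated at 0.943, and 18.5% of all its reads fell in its 10 highest genes, against 9.74% to 13.9% in the other 5 libraries. Whether reads were counted by strand is not given in the sources used here. Of the 100 genes with the highest values that could be matched to an annotation, 71 had exons overlapping another gene on the opposite strand, against 36.3% of the rest. Pcsk7, which lies opposite Tagln, had values from 8791 to 30316. A gene's value may therefore hold reads of its partner, and partners other than predicted, clone-named and Rik genes are named below beside genes given with values. Of the 5494 tested genes with no such overlap, 207 were higher and 101 lower in the double KO by the test described below.

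Stellate and fibroblast genes were present, while several markers that define quiescent stellate cells had no value in the table. Of 18 stellate cell markers 11 had values. Their summed normalized count was 4434 to 6645 in the double KO libraries, 5349 to 6169.7 in Sqstm1 KO and 1735 to 1882 in WT. Col1a1 and Col1a2 enter this sum, so it does not tell stellate cells from other cells that make collagen. Lrat, Des, Reln, Ngfr, Lhx2, Colec11 and Cygb were not among the genes with values. The same check gave 6 of 12 vascular smooth muscle markers and 5 of 19 portal fibroblast and mesothelial markers with a value. The smooth muscle sum was higher in every knock-out library than in every WT library, and lower in the double KO than in Sqstm1 KO without overlap. The portal fibroblast and mesothelial sums overlapped between the knock-out groups. Whether such cells were present was not tested. For other liver cells the check gave 1 of 14 hepatocyte markers (Apoa2), 3 of 11 cholangiocyte and 4 of 16 endothelial markers with a value. It gave 4 of 20 macrophage, 1 of 15 lymphocyte and 0 of 9 neutrophil markers. Ptprc and Adgre1, which define leukocytes and macrophages, were not among them.

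The target genes did not separate the groups. Sqstm1, which lies opposite Mrnip, had 25.8, 51.4 and 59.9 normalized counts in double KO replicates 1 to 3, 40.8, 30.8 and 86.8 in Sqstm1 KO and 223, 255 and 243 in WT, so that all 6 knock-out libraries lay below all WT libraries. Nbr1 had 81.3, 79.9 and 111 in the double KO, 75.5, 72.2 and 88.9 in Sqstm1 KO and 106, 92.7 and 106 in WT. The double KO and Sqstm1 KO values of Nbr1 overlapped (log2 fold change 0.19, SE 0.24, adjusted p = 0.722). The files hold no reads by exon, so these values do not check the Nbr1 genotype. The Y-linked genes differed between the groups without overlap. Ddx3y had 47.8, 44.5 and 54.8 in the double KO and 0 in all 3 Sqstm1 KO libraries, and Eif2s3y, Kdm5d and Uty also had no read in Sqstm1 KO and from 5.74 to 29.3 in the double KO. WT libraries had reads of all 4. The added Nbr1 deletion and whatever else differs with the Y-linked reads cannot be told apart in any result below.

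**Figure D1:**
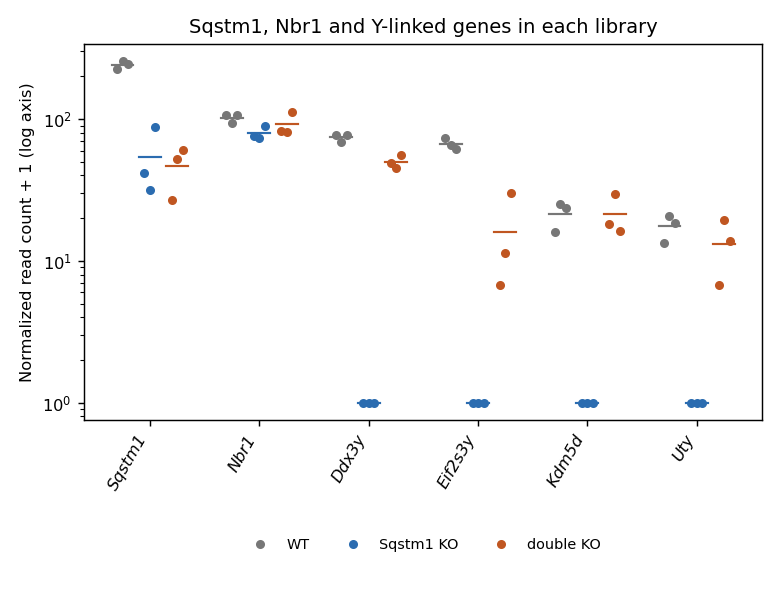
Normalized read count plus 1 on a log axis for Sqstm1, Nbr1 and 4 Y-linked genes. Each point is 1 of the 3 libraries of a group and each bar the mean of the 3. Sqstm1 is below WT in all 6 knock-out libraries, Nbr1 overlaps between Sqstm1 KO and double KO, and the 4 Y-linked genes are at 0 in Sqstm1 KO.

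The differences between the 2 knock-out groups lay mostly on the side of higher expression in the double KO. By limma's moderated test on log2 of the value plus 1, at a Benjamini-Hochberg adjusted p below 0.05, 447 genes were higher (4.42% of those tested) and 153 lower (1.51%), 5.93% in all. Non-overlapping groups, with 3 values in each, were seen for 1162 genes on the higher side (11.5%) and for 958 on the lower side (9.47%). The median log2 fold change over all tested genes was -0.0083. Of the called genes, 234 higher and 47 lower ones stayed called whichever of the 9 libraries was left out, and genes given below with values are of this kind unless said otherwise; those named without a value need not be. The higher count was 291 without double KO replicate 1 and 263 without double KO replicate 3. The lower count was 97 without WT replicate 2, 101 without WT replicate 3, 90 without double KO replicate 1 and 70 without double KO replicate 3. A fit of the 6 libraries alone, without WT in the estimate of the spread, called 290 higher and 62 lower.

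**Figure D2:**
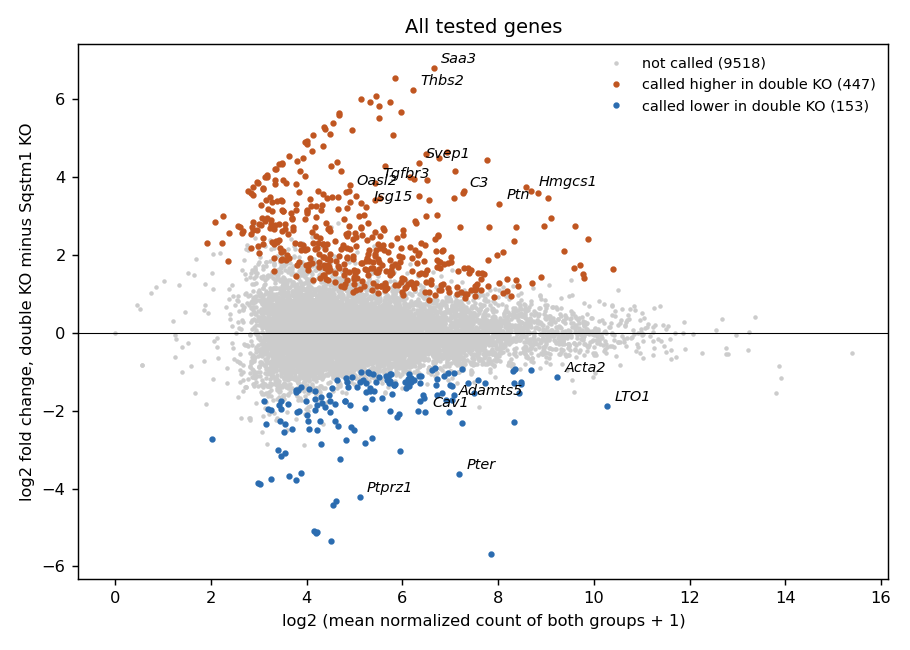
Log2 fold change of the double KO against Sqstm1 KO (vertical axis) for each tested gene against the log2 mean normalized count of both groups plus 1 (horizontal axis). Orange points are the 447 genes called higher and blue points the 153 called lower; the diagonal edge at the upper left is formed by genes with no read in Sqstm1 KO.

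Interferon-stimulated genes gave more calls than any other list, and 21 effectors were higher in the double KO. Of 70 listed effector genes 45 were tested. The called share was 46.7%, beside 4.42% of all tested genes. Values of 32 did not overlap on that side, as was so for 11.5% of all tested genes. The median log2 fold change of the 45 was 1.52. Oasl2, a member of the oligoadenylate synthetase family, had 49.7, 59.4 and 50.9 in the double KO, 6.13, 1.62 and 3.25 in Sqstm1 KO and 68.1, 51.98 and 52.2 in WT (log2 fold change 3.66, SE 0.37, adjusted p = 3.75e-05). Every double KO value was above every Sqstm1 KO value and close to the WT level. Isg15, the ubiquitin-like protein that is conjugated to other proteins after interferon, had 87.02, 52.5 and 56.04 against 2.04, 4.06 and 19.5 (log2 fold change 3.24, SE 0.54, adjusted p = 0.00212). Its highest Sqstm1 KO value came from replicate 3. Lgals3bp, a secreted glycoprotein that binds galectins, had 53.5, 41.1 and 58.6 against 2.04, 6.49 and 2.17 and 16.3, 33.1 and 35.8 in WT. Rsad2, which encodes the antiviral enzyme viperin, had 21.99, 9.13 and 16.6 in the double KO and no read in Sqstm1 KO. Set against a floor of 3 counts over the 3 Sqstm1 KO libraries (0.957 normalized counts), that is at least 16.6-fold higher, counting error alone being covered by the floor.

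Further members of the list stayed called in all 9 fits without 1 library. Trim30a, a TRIM protein, had 40.2, 61.6 and 36.9 against 8.17, 9.74 and 9.76, and Apol9a, of the apolipoprotein L family, 36.3, 33.1 and 42.03 against 7.15, 14.6 and 10.8. Neither gene overlapped between the groups. Ifi44 had 30.6, 33.1 and 19.1 against 1.02, 3.25 and 3.25, Parp14, a mono-ADP-ribosyltransferase, 54.5, 58.2 and 31.8 against 8.17, 17.04 and 11.9, and Xaf1, which binds the apoptosis inhibitor XIAP, 49.7, 84.5 and 45.8 against 9.19, 12.99 and 29.3. Phf11d, Rtp4 and the ubiquitin ligase Dtx3l, which lies opposite Parp9, had log2 fold changes of 2.61, 3.15 and 1.98. Ifit1, which binds viral RNA that lacks cap methylation, was uneven: 1601, 107 and 408 in the double KO against 25.5, 7.304 and 134 in Sqstm1 KO (adjusted p = 0.024). Its values overlapped, and its call was lost without double KO replicate 1, double KO replicate 3, Sqstm1 KO replicate 1 or Sqstm1 KO replicate 2. Of the 45 tested members 43 had a positive log2 fold change and 2 a negative one, and 34 had an unadjusted p below 0.05 by limma. Among the 24 members not called, Ifit2, Ifi35 and Mov10 had log2 fold changes of 0.40, 0.84 and -0.57. That of Mov10 was the lowest of the list. Oas1a, Oas1b, Oas2, Oas3 and Mx2 were below the count filter and were not tested. Leaving out a library gave 14 to 22 called members, the lowest without double KO replicate 3.

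Promoter sequence was searched for the core of the interferon-stimulated response element, GAAA followed by 2 bases of any kind and GAAA again, which factors activated by interferon bind. The window was 250 bases before to 50 after each start, on both strands, in RefSeq promoters of build GRCm38.p6. A match was present in 3.99% of the 27025 genes with a promoter entry and in 3.67% of the 7839 tested genes that could be matched by symbol. Among matched called genes it was present in 11.2% of 331 higher genes and 0.893% of 112 lower genes. The gamma-activated site TTCNNNGAA was present in 10.9% and 8.04% of the same genes, against 8.1% of tested ones. Of the 19 called interferon effectors with a promoter entry 10 held the response element (52.6%). Among all 37 tested effectors with an entry, called or not, 17 held it (45.9%). A match is a description of these letters, not a shown binding site. From the called effectors that hold it, 4 with small p are shown to let the element be read in place, and the choice was not by p alone. The 150 bases before the start are given 5′ to 3′ in the direction of the gene, all on the minus strand. Matches to the element or its reverse complement are in capitals.
Trim30a (chr7:104465194-104465343): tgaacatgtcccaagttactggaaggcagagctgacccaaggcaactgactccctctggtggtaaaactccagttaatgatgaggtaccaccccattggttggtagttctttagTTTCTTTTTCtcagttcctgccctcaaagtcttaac
Rsad2 (chr12:26456453-26456602): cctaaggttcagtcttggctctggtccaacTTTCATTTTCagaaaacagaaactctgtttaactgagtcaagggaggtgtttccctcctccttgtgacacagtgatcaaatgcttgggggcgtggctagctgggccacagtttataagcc
Isg15 (chr4:156200819-156200968): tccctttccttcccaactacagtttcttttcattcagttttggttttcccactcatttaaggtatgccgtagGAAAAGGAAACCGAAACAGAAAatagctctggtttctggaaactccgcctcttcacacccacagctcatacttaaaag
Apol9a (chr15:77411081-77411230): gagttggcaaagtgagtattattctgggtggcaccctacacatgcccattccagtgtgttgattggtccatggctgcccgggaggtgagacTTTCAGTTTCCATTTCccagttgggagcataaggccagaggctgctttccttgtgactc
Trim30a and Rsad2 hold 1 match each, Apol9a 2 overlapping ones and Isg15 3 overlapping ones, and the first begins 36, 120, 59 and 78 bases before the start.

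The guanylate-binding proteins and immunity-related GTPases, interferon-induced enzymes that coat the vacuoles of intracellular microbes, rose as a larger share of their list. Of 9 tested members 7 were higher (77.8%), all 9 had an unadjusted p below 0.05 on that side, and the median log2 fold change was 2.45. Gbp9 had 50.7, 39.96 and 52.2 against 1.02, 8.93 and 0 (log2 fold change 4.15, SE 0.61, adjusted p = 0.000763). Iigp1 had 42.1, 77.6 and 33.1 against 7.15, 3.25 and 3.25 and Gbp3 32.5, 75.3 and 57.3 against 8.17, 10.6 and 7.59. In each of the 3 genes the lowest double KO value was at least 3 times the highest Sqstm1 KO value. Gbp2 (opposite Mir6381), Gbp6, Gbp7 and Irgm2 had log2 fold changes of 2.42, 2.65, 2.21 and 2.67. All 6 tested members with a promoter entry held the response element, the 4 called ones among them. The RNA sensors showed the same direction: 5 of 8 tested members were higher (62.5%), beside 4.42% of all tested genes. The count fell to 3 without double KO replicate 1, without double KO replicate 2 or without Sqstm1 KO replicate 1. Ddx60, a helicase that aids RNA sensing, had 24.9, 26.3 and 14.01 against 1.02, 3.25 and 1.08; Ifih1, the long double-stranded RNA sensor MDA5, 38.2, 58.2 and 49.7 against 19.4, 12.99 and 14.1; and Dhx58, the regulator LGP2, 97.5, 46.8 and 85.3 against 14.3, 5.68 and 21.7, the last opposite Dhx58os.

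Some transcription factors and kinases of the interferon receptor pathway were also higher. Of 18 tested STAT, IRF and JAK-SOCS genes 6 were called higher (33.3%), beside 4.42% of all tested genes. Stat2, Irf7 and Irf9 were among them. Stat2 had 35.4, 74.2 and 53.5 in the double KO, 7.15, 12.99 and 5.42 in Sqstm1 KO and 38.1, 53.5 and 62.5 in WT (log2 fold change 2.56, SE 0.38, adjusted p = 0.000872). Irf9, which binds DNA in a complex with STAT2, had 19.1, 46.8 and 39.5 against 7.15, 6.49 and 8.68. Values of both genes did not overlap between the groups. Irf7, the interferon-inducible factor that amplifies interferon transcription and lies opposite Phrf1, had 12.4, 15.98 and 12.7 against 1.02, 2.43 and 0. Jak2 had a log2 fold change of 1.54. Socs3, a feedback inhibitor of cytokine receptors, had 2.73 and lost its call without double KO replicate 1, double KO replicate 3 or Sqstm1 KO replicate 2. Stat3, opposite Stat5a, had 0.77 (adjusted p = 0.203) and Irf1 -0.21 (adjusted p = 0.818).

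Within the STING pathway the called genes were members of the Ifi200 family and not the core of the pathway. Of 16 tested genes 4 were higher (25%), beside 4.42% of all tested genes. They were Ifi203, Ifi204, Ifi211 and Mndal, DNA-binding proteins with PYHIN or HIN domains. Ifi203 had 35.4, 42.2 and 24.2 against 4.08, 7.304 and 0 (log2 fold change 3.29, SE 0.62, adjusted p = 0.00503) and Ifi211 39.2, 66.2 and 57.3 against 15.3, 17.04 and 11.9. Both genes were apart in all 6 libraries. The count was 2 in each of 5 fits that left out 1 library, namely double KO replicate 1, 2 or 3 or Sqstm1 KO replicate 1 or 2, while Ifi203 and Ifi211 stayed called in all 9 fits. Cgas, the sensor of cytosolic DNA, had 19.1, 29.7 and 11.5 against 11.2, 12.99 and 3.25 (log2 fold change 1.13, SE 0.51, adjusted p = 0.245). Sting1 had 39.2, 21.7 and 17.8 in the double KO, 11.2, 17.9 and 13.02 in Sqstm1 KO and 6.81, 11.3 and 11.5 in WT (log2 fold change 0.80, SE 0.41, adjusted p = 0.305). Values of both overlapped between the groups. The kinase Tbk1 had -0.23 and its substrate Irf3, opposite Bcl2l12, 0.54, with adjusted p of 0.703 and 0.539. The other 8 tested members, Samhd1, Trim32, Trim56, Tmed10, Rnaseh2a, Rnaseh2b, Banf1 and Nlrc3, had log2 fold changes of -0.42 to 1.07 and none was called. RNA levels do not show whether STING or TBK1 protein was active.

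Some genes of antigen presentation were higher. Of 17 tested genes of MHC class I and peptide loading 5 were higher (29.4%), beside 4.42% of all tested genes. The count was 3 without double KO replicate 3. H2-K1, which encodes one of the classical heavy chains of MHC class I, had 60.2, 68.5 and 50.9 in the double KO, 5.105, 10.6 and 9.76 in Sqstm1 KO and 43.6, 42.9 and 40.02 in WT (log2 fold change 2.73, SE 0.32, adjusted p = 0.000131). H2-D1 had 56.4, 89.05 and 58.6 against 16.3, 19.5 and 27.1 and H2-Q4 24.9, 59.4 and 63.7 against 9.19, 12.99 and 10.8. These are near-identical genes, and how reads that match several of them were counted is not given in the sources used here. Psmb8, a subunit of the immunoproteasome, had 2.68 and lost its call without double KO replicate 3. Tap1, the peptide transporter opposite Psmb9, had 2.78 and lost it without double KO replicate 2 or 3. The light chain B2m had 40.2, 114 and 64.95 against 27.6, 34.1 and 55.3 and was not called (adjusted p = 0.256).

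**Figure D3:**
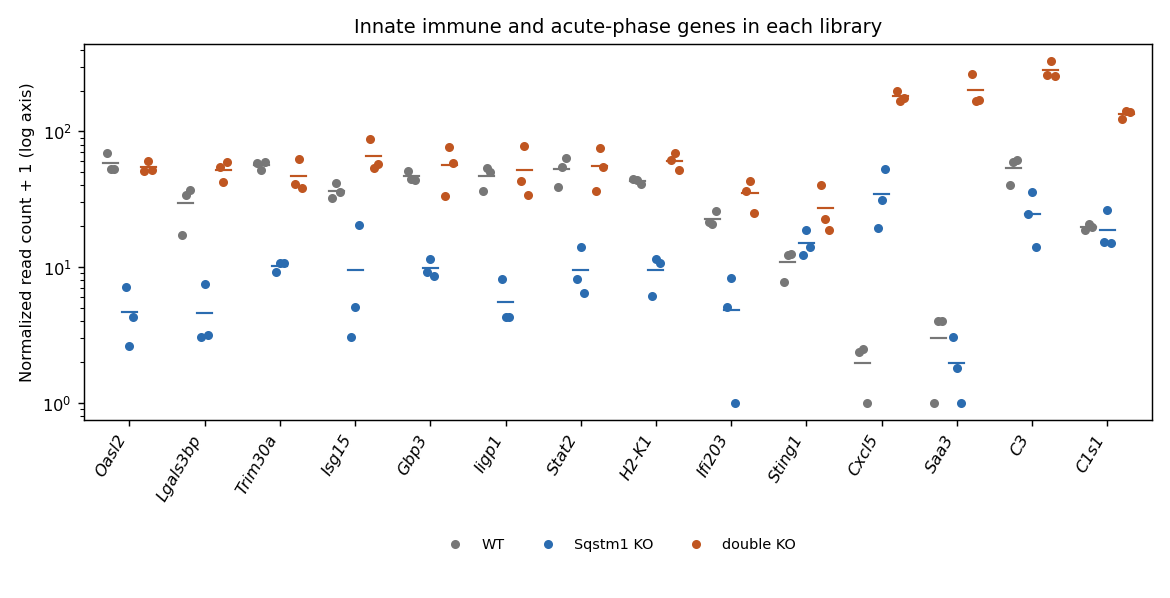
Normalized read count plus 1 on a log axis for 14 genes; each point is 1 of the 3 libraries of a group and each bar the mean of the 3. All genes shown except Sting1 are higher in the 3 double KO libraries than in the 3 Sqstm1 KO libraries without overlap; for Cxcl5, Saa3, C3 and C1s1 the double KO libraries also lie above WT.

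Most tested acute-phase and complement genes were higher in the double KO, several of them also against WT levels. Of 15 tested members 10 were higher (66.7%), with a median log2 fold change of 2.46, and 7 to 10 were called whichever library was left out. Saa3, a serum amyloid A made outside the liver parenchyma in inflammation, had 263, 166 and 171 in the double KO, 2.04, 0.812 and 0 in Sqstm1 KO and 0, 3.01 and 3.03 in WT (log2 fold change 6.80, SE 0.60, adjusted p = 9.59e-06). C3, the central complement protein, had 257, 329 and 255, 23.5, 34.9 and 13.02 and 39.5, 58.004 and 60.03 in the same order (log2 fold change 3.60, SE 0.33, adjusted p = 1.58e-05). C1s1, a protease of the first complement component, had 121, 140.4 and 138 against 14.3, 25.2 and 14.1. All 3 were far apart in every pair of libraries and above the WT values as well. C4b had 23.9, 23.97 and 15.3 against 0, 2.43 and 0, the complement inhibitor Clu 36.3, 30.8 and 31.8 against 0, 1.62 and 6.51, and the copper carrier Cp, opposite Hps3, 163, 187 and 159 against 52.1, 47.1 and 42.3. Steap4, a metalloreductase induced in inflammation, had 48.8, 84.5 and 71.3 against 6.13, 16.2 and 14.1. The members below 0 were Ptx3 (-0.65) and Cfd (-1.81), neither of them called; both had an unadjusted p below 0.05, and without double KO replicate 3 a member of the list was called lower.

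Cytokine and NF-kB genes gave fewer calls. Of 16 tested cytokines, chemokines and their receptors 5 were higher (31.25%), and of 24 NF-kB subunits and targets 4 (16.7%). Cxcl5, a neutrophil chemokine, had 199, 166 and 176 in the double KO, 18.4, 30.03 and 52.1 in Sqstm1 KO and 1.36, 1.51 and 0 in WT (log2 fold change 2.51, SE 0.44, adjusted p = 0.00301). Tnfaip2, an NF-kB target, had 22.9, 21.7 and 24.2 against 4.08, 6.49 and 3.25. Both were apart in all 6 libraries and were the steadiest of their lists. Ccl7, Il1r1, Il4ra and Il13ra1 were also called, but the cytokine count was 2 without double KO replicate 1, double KO replicate 3 or Sqstm1 KO replicate 1; it was 3 if Sqstm1 KO replicate 2 was left out. The NF-kB count was 2 without double KO replicate 1, double KO replicate 2, Sqstm1 KO replicate 1 or WT replicate 2, and 1 without double KO replicate 3. Cxcl12, an abundant stellate cell chemokine, was not called (-0.29, adjusted p = 0.593). No member of any innate list up to here was called lower by limma, edgeR or DESeq2, and 2 acute-phase, 1 STAT-IRF and 1 cytokine gene had an unadjusted p below 0.05 on the lower side by limma.

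Macrophage genes were measured beside these groups, because such cells also express many of them. The summed count of the 4 macrophage markers with a value (Cd14, Cd68, Csf1r and Mpeg1) was 14.3 to 29.3 in the double KO, 8.68 to 12.3 in Sqstm1 KO and 20.3 to 35.4 in WT. Of these, Cd14 passed the filter and was called (log2 fold change 2.53), but not without double KO replicate 3. Values of Cd68, Csf1r and Mpeg1 were at most 7.99 in both knock-out groups, and each of these genes overlapped between them. The 4 endothelial markers summed to 198 to 284 in the double KO and 95.8 to 350.3 in Sqstm1 KO. The part of such cells in the rises was not tested, and in these bulk libraries fewer cells of a type and less RNA per cell cannot be told apart.

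**Figure D4:**
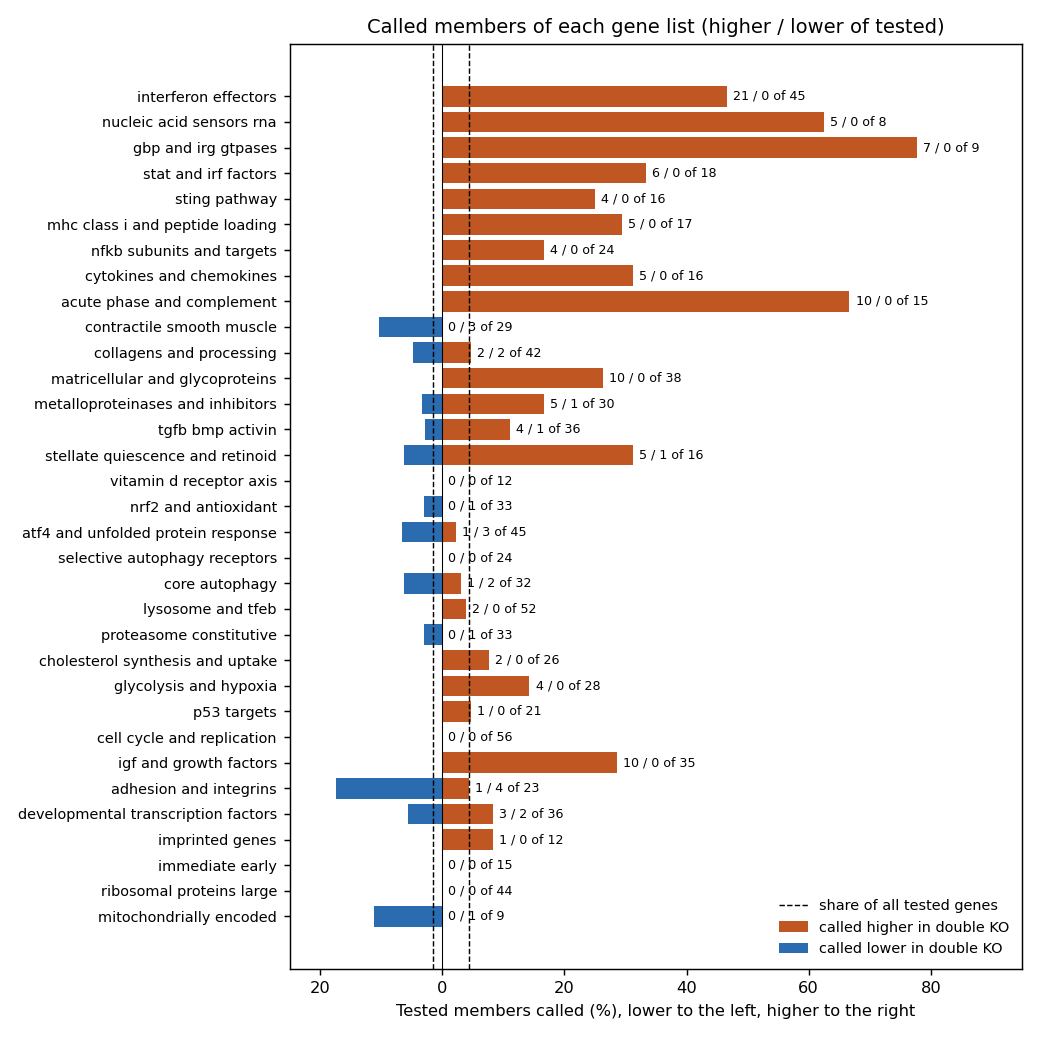
Share of the tested members of each gene list that was called higher (orange, to the right) or lower (blue, to the left) in the double KO, in percent. Dashed lines mark the share over all tested genes (4.42% higher and 1.51% lower), and the text beside each bar gives the counts called higher and lower of the members tested.

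Some genes of the matrix were higher. Of 38 tested matricellular proteins, glycoproteins and proteoglycans 10 were higher (26.3%), with 7 to 9 called when a library was left out. Thbs2, thrombospondin 2, a matricellular protein that binds matrix metalloproteinase 2 and limits angiogenesis, had 137, 188 and 115 in the double KO, 0, 2.43 and 1.08 in Sqstm1 KO and 170.2, 188 and 226 in WT (log2 fold change 6.23, SE 0.40, adjusted p = 7.17e-07). Thbs2 was nearly absent from the Sqstm1 KO libraries and present in the other 6. Tgfbi, a TGF-beta-induced adhesion protein, had 61.2, 61.6 and 50.9 against 3.06, 9.74 and 2.17 and 0, 1.51 and 0 in WT. The proteoglycan Vcan had 141, 224 and 183 against 30.6, 44.6 and 6.51, and Lama4, a laminin chain of vessel basement membranes, 38.2, 81.1 and 58.6 against 5.105, 12.99 and 10.8. Fbln1, an elastic fibre glycoprotein, had 25.8, 15.98 and 12.7 and no read in Sqstm1 KO, at least 18.99-fold higher against the same floor. Has2, which makes hyaluronan and lies opposite Has2os, and Tnc, tenascin C, had log2 fold changes of 1.97 and 1.68. Postn, periostin, had 45.9, 63.9 and 38.2 against 92.9, 125 and 79.2 and was not called (adjusted p = 0.135).

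Fibrillar collagen genes of the list were not among the called ones. Col24a1, a collagen gene that is not on the list, was called higher. Of 42 tested collagens and processing enzymes 2 were higher (Bmp1 and P3h3) and 2 lower (Col6a3 and Pcolce2). That is 4.76% each way, beside 4.42% higher and 1.51% lower over all tested genes. Col1a1 had 3192, 895 and 1505 in the double KO, 2475, 2022 and 932 in Sqstm1 KO and 783, 714 and 756 in WT (adjusted p = 0.977). Col1a2 had 1966, 1647 and 1584 against 1858, 2115 and 2356 (adjusted p = 0.597). Values of both genes overlapped between the knock-out groups, and all 6 values of Col1a1 lay above WT. Bmp1, the protease that trims procollagens and lysyl oxidase, had 76.5, 73.1 and 121 against 27.6, 34.9 and 19.5 (log2 fold change 1.69, SE 0.31, adjusted p = 0.00474). The lower count was 6 without Sqstm1 KO replicate 3, 1 without double KO replicate 2 or Sqstm1 KO replicate 1, and 0 without double KO replicate 3 or Sqstm1 KO replicate 2. The higher count was 1 without any single double KO library.

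The calls among contractile genes were all lower. Of 29 tested members 24 had a negative log2 fold change, with a median of -0.57. Acta2, Actg2 and Tpm1 were called lower, 10.3% of the members beside 1.51% of all tested genes. Values of 11 members did not overlap on the lower side, as was so for 9.47% of all tested genes. Acta2, smooth muscle actin, the usual marker of activated stellate cells, had 266, 545 and 335 in the double KO, 632, 908 and 918 in Sqstm1 KO and 77.6, 81.4 and 94.6 in WT (log2 fold change -1.14, SE 0.29, adjusted p = 0.0316). Actg2 had 84.1, 82.2 and 54.8 against 162, 169.6 and 142 and 6.81, 8.29 and 6.06 in WT, and Tpm1, tropomyosin 1, 251, 306 and 287 against 528, 528 and 561 and 276, 295 and 304. The 3 genes did not overlap between the knock-out groups, and Acta2 and Actg2 remained above WT in all 3 double KO libraries. Tagln, opposite Pcsk7, had -0.93 (adjusted p = 0.0595). The calls rested on few libraries: Acta2 lost its call without double KO replicate 1 or 3, Sqstm1 KO replicate 2 or WT replicate 2 or 3, Tpm1 without double KO replicate 1 or 3, Sqstm1 KO replicate 1 or WT replicate 2, and Actg2 without double KO replicate 3 or Sqstm1 KO replicate 1 or 2. The list had 1 called member without double KO replicate 1, Sqstm1 KO replicate 1 or WT replicate 2, 0 without double KO replicate 3 and 6 without Sqstm1 KO replicate 3. By limma, edgeR and DESeq2 no member was called higher, and none had an unadjusted p below 0.05 on that side.

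Proteases and TGF-beta family genes held calls on both sides, beside 4.42% higher and 1.51% lower over all tested genes. Of 30 tested metalloproteinases and inhibitors 5 were higher (16.7%) and 1 lower (3.33%), 8 and 2 without Sqstm1 KO replicate 3. Adamts7, which lies opposite Tbc1d2b, had 136, 93.6 and 96.8 against 16.3, 14.6 and 23.9 (log2 fold change 2.52, SE 0.29, adjusted p = 0.000103). Mmp2, a gelatinase, had 34.4, 50.2 and 40.8 against 9.19, 5.68 and 11.9, and Serpinf1, the antiangiogenic serpin PEDF, 42.1, 82.2 and 38.2 against 3.06, 4.06 and 5.42. Adamts9 had a log2 fold change of 2.28. Adamts5, the aggrecanase, went the other way, with 57.4, 62.8 and 57.3 in the double KO, 165, 227 and 208 in Sqstm1 KO and 266, 309 and 291 in WT (log2 fold change -1.73, SE 0.23, adjusted p = 0.000362). Of 36 tested TGF-beta, BMP and activin genes 4 were higher (11.1%) and 1 lower (2.78%). Without double KO replicate 2 the lower count was 2. Tgfbr3, the co-receptor betaglycan, had 77.5, 84.5 and 77.7 against 3.06, 4.87 and 6.51 (log2 fold change 3.84, SE 0.32, adjusted p = 6.46e-06). Grem1, a BMP antagonist, had 73.6, 175 and 84.1 against 20.4, 23.5 and 7.59 and 155, 191 and 223 in WT, and Ltbp2, which belongs to the latent TGF-beta binding proteins, 205, 106 and 187 against 73.5, 50.3 and 33.6. Inhba, the activin A subunit, was lower, with 27.7, 35.4 and 29.3 against 74.5, 87.7 and 77.01 and 25.9, 25.6 and 21.8 in WT (log2 fold change -1.35, adjusted p = 0.00675).

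Some growth factors and their receptors were higher. Of 35 tested genes 10 were higher (28.6%), 6 without double KO replicate 2. Ptn, the heparin-binding cytokine pleiotrophin, had 394, 521 and 494 in the double KO, 33.7, 49.5 and 59.7 in Sqstm1 KO and 0, 2.26 and 2.43 in WT (log2 fold change 3.30, SE 0.43, adjusted p = 0.000282). Fgf10 had 39.2, 23.97 and 33.1 against 1.02, 0 and 0 and 28.6, 27.1 and 22.4 in WT. Ptn was scarcely read in WT, whereas Fgf10 in the double KO was near its WT level. Hgf, hepatocyte growth factor, had 26.8, 25.1 and 33.1 against 0, 0.812 and 2.17, and the PDGF receptor Pdgfra 185, 248 and 270.00 against 56.1, 99.01 and 67.2. Sfrp1, a secreted Wnt inhibitor, had 13.4, 28.5 and 14.01 and no read in Sqstm1 KO, at least 19.5-fold higher against the floor. Igfbp4 had a log2 fold change of 2.16. Pdgfrb was not called (0.32, adjusted p = 0.559). No member was called lower by the 3 tools, and 0 had an unadjusted p below 0.05 on that side.

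**Figure D5:**
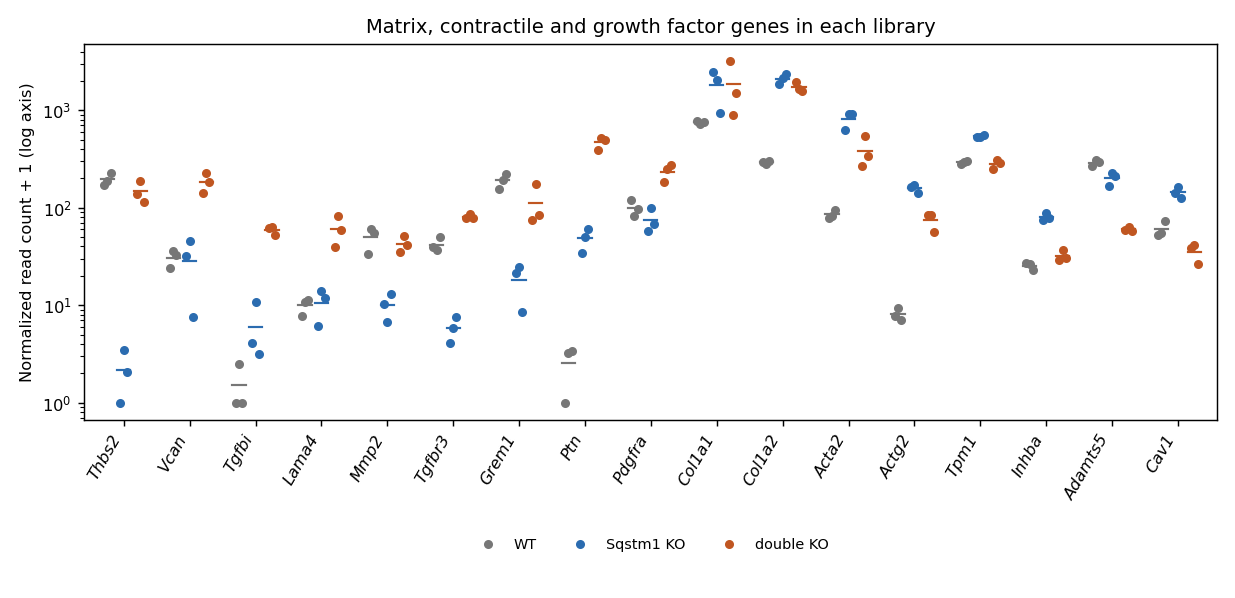
Normalized read count plus 1 on a log axis for 17 genes of matrix, growth factor signalling and contraction; each point is 1 of the 3 libraries of a group and each bar the mean of the 3. Thbs2 to Pdgfra are higher in the 3 double KO libraries than in Sqstm1 KO, Col1a1 and Col1a2 overlap, and Acta2 to Cav1 are lower.

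Some genes tied to stellate cell quiescence and retinoid handling differed. Of 16 tested members 5 were higher (31.25%) and 1 lower (6.25%), beside 4.42% and 1.51% of all tested genes. Angptl6, an angiopoietin-like factor, had 117, 100.5 and 103 in the double KO, 0, 3.25 and 6.51 in Sqstm1 KO and 61.3, 49.7 and 47.3 in WT (log2 fold change 5.08, SE 0.55, adjusted p = 5.55e-05). Aldh1a1, which oxidizes retinal to retinoic acid, was lower, with 0, 1.14 and 1.27 against 19.4, 13.8 and 32.5 and 1.36, 7.53 and 1.82 in WT (log2 fold change -3.67, adjusted p = 0.00404). The retinoic acid receptor Rarb, opposite Top2b, had 2.04 and lost its call without double KO replicate 1 or 3. Of 12 tested genes of the vitamin D receptor axis, a regulator of stellate cell activation, 0 were called by limma, edgeR or DESeq2 and 0 had an unadjusted p below 0.05.

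Metabolic lists held few calls, all of them higher, beside 4.42% higher over all tested genes. Of 26 tested genes of cholesterol synthesis and uptake 2 were higher (7.69%). Hmgcs1, the synthase that makes HMG-CoA, had 789.8, 750.1 and 750.2 in the double KO, 64.3, 77.9 and 43.4 in Sqstm1 KO and 65.4, 42.9 and 56.4 in WT (log2 fold change 3.64, SE 0.27, adjusted p = 2.43e-06). The 3 double KO values lay close together and far above every other library. Sqle, the squalene epoxidase, had a log2 fold change of -0.17 and was not called; without double KO replicate 2 a member of the list was called lower. Abca1, the cholesterol exporter, had 28.7, 39.96 and 31.8 against 10.2, 12.99 and 4.34 and was higher (log2 fold change 1.86, adjusted p = 0.0077). Of 28 tested genes of glycolysis and hypoxia 21 had a positive log2 fold change and 4 were called higher (14.3%). Values of 10 did not overlap on the higher side, as was so for 11.5% of all tested genes. Pdk1, which inhibits pyruvate dehydrogenase, had 82.2, 67.4 and 66.2 against 17.4, 25.97 and 19.5, Hif1a, the oxygen-sensitive factor, 183, 276 and 187 against 68.4, 76.3 and 65.1, and Pfkl, the liver phosphofructokinase, 156, 119 and 136 against 66.4, 57.6 and 37.96. Eno2 was the fourth (1.94) and kept its call in 1 of the 9 fits, that without Sqstm1 KO replicate 1.

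Adhesion genes and developmental transcription factors held calls on both sides, beside 4.42% higher and 1.51% lower over all tested genes. Of 23 tested adhesion genes 1 was higher (4.35%) and 4 lower (17.4%). The lower count was 1 without double KO replicate 1, Sqstm1 KO replicate 1 or Sqstm1 KO replicate 2. Pcdh19 had 0, 3.42 and 1.27 in the double KO, 16.3, 29.2 and 32.5 in Sqstm1 KO and 46.3, 48.96 and 43.1 in WT (log2 fold change -3.59, adjusted p = 0.000568). Pcdh7, another protocadherin, was higher, with 153, 195 and 158 against 66.4, 87.7 and 72.7. The 2 protocadherins thus changed in opposite directions. Of 36 tested transcription factors 3 were higher (8.33%) and 2 lower (5.56%), and 4 and 1 without Sqstm1 KO replicate 3. The higher count was 1 without Sqstm1 KO replicate 1, Sqstm1 KO replicate 2 or double KO replicate 3. The lower count was 1 without any library other than Sqstm1 KO replicate 1 and double KO replicate 1. Hoxa10 had no read in the double KO and 27.6, 33.3 and 43.4 in Sqstm1 KO, at least 31.3-fold lower against a floor of 3 counts over the 3 double KO libraries (1.11 normalized counts). Prrx1, a mesenchymal homeobox factor, had 93.7, 156 and 106 against 27.6, 49.5 and 46.6 and 148, 149.9 and 163 in WT. The other calls were Nr2f1 and Zeb2 on the higher side and Nr2f2 on the lower. Peg3, an imprinted zinc finger gene, was higher (29.6, 44.5 and 33.1 against 1.02, 5.68 and 1.08), as 1 of 12 tested imprinted genes (8.33%).

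Autophagy genes themselves gave few calls, beside 4.42% higher and 1.51% lower over all tested genes. None of 24 tested selective autophagy receptors was called by limma, edgeR or DESeq2, and 3 had an unadjusted p below 0.05 by limma. Their log2 fold changes ran from -1.16 to 1.10. Tax1bp1, a receptor that works with NBR1, had -0.56. Of 32 tested core autophagy genes Pik3c3 was higher (3.125%) and Rb1cc1 and Plekhm1 lower (6.25%). Pik3c3 lost its call whichever library was left out; the lower count was 0 without double KO replicate 1 or 3 and 1 without double KO replicate 2, Sqstm1 KO replicate 1 or Sqstm1 KO replicate 2. Of 52 tested lysosomal genes 2 were higher (3.85%), 5 without Sqstm1 KO replicate 3. Gpnmb, a glycoprotein of stressed lysosomes, had 50.7, 39.96 and 44.6 against 15.3, 18.7 and 16.3. Ctsb, cathepsin B, opposite Fdft1, had 195, 140.4 and 129.9 against 60.2, 77.1 and 58.6. Of 33 tested NRF2 and antioxidant genes, targets of the factor that p62 frees from KEAP1, Taldo1 alone was called (lower, -1.44; kept without WT replicate 1, Sqstm1 KO replicate 3 or double KO replicate 3 and lost without any other library). Without Sqstm1 KO replicate 3 a member was called higher; in the full fit 7 had an unadjusted p below 0.05, all on the lower side.

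Stress, protein turnover and growth lists held few or no calls, beside 4.42% higher and 1.51% lower over all tested genes. Of 45 tested ATF4 and unfolded protein response genes 3 were lower (6.67%) and 1 higher (2.22%). Slc6a9, a glycine transporter opposite Ccdc24 and B4galt2, had 13.4, 17.1 and 21.7 against 45.9, 42.2 and 52.1 and lost its call without double KO replicate 1. Mthfd2 and Slc7a5 were the other lower members. The lower count was 1 without double KO replicate 1, double KO replicate 3, Sqstm1 KO replicate 1 or Sqstm1 KO replicate 2. Cebpb lost its call without each of the same 4. Without double KO replicate 1 the member called lower was another gene, as Slc6a9, Slc7a5 and Mthfd2 all lost their call. Of 33 proteasome subunits 1 was called by limma (Psmd11, lower, -1.01; kept without Sqstm1 KO replicate 3 or double KO replicate 1 and lost without any other library) and 0 by edgeR or DESeq2, with 9 at an unadjusted p below 0.05, all lower. Of 56 cell cycle and replication genes none was called by the 3 tools; 8 had an unadjusted p below 0.05 by limma and 43 had a negative log2 fold change, with 2 called lower without Sqstm1 KO replicate 3. None of 44 large-subunit ribosomal protein genes was called by limma or edgeR, while DESeq2 called 1 lower, and limma 3 without double KO replicate 2; 42 had a negative log2 fold change. Their median of -0.55 moved to -0.25 without Sqstm1 KO replicate 3, so its size rested in part on that library.

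Among single genes outside these groups, the largest rises by the rule for named genes included secreted and membrane proteins. Svep1, a large adhesion protein of the extracellular matrix, had 149, 159.8 and 150.3 in the double KO, 5.105, 4.87 and 10.8 in Sqstm1 KO and 5.45, 9.79 and 6.67 in WT (log2 fold change 4.36, SE 0.37, adjusted p = 6.46e-06). Slit3, a guidance cue, had 65.98, 53.7 and 56.04 against 3.06, 0 and 0, and Bdkrb2, the bradykinin B2 receptor, 113, 58.2 and 91.7 against 0, 0 and 5.42. These 3 were at most 9.79 in any WT library, so the double KO stood above both other groups. Plac8 had 115, 69.6 and 96.8 against 3.06, 4.06 and 4.34 and 31.3, 21.8 and 32.7 in WT, and Nhsl2 262, 174 and 185 against 9.19, 8.93 and 6.51 and 324, 222 and 161. Ms4a6c, a tetraspan gene of the Ms4a cluster, had 105, 42.2 and 56.04 and no read in Sqstm1 KO, at least 70.8-fold higher. Tm6sf1 (opposite Hdgfl3), Ercc2 (opposite Klc3) and Tctn1 (opposite Hvcn1) had log2 fold changes of 6.08, 4.58 and 4.16; which gene of each pair gave the reads was not tested. Notch3, a receptor of mural cells and a smooth muscle marker of the check above, had 59.3, 54.8 and 64.95 against 4.08, 10.6 and 6.51.

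The largest falls by the same rule included a receptor phosphatase and genes of caveolae and of the S100 family. Ptprz1, the receptor phosphatase that binds pleiotrophin, had 0.956, 3.42 and 3.82 in the double KO, 56.1, 56.8 and 80.3 in Sqstm1 KO and 1.36, 0 and 1.21 in WT (log2 fold change -4.22, SE 0.55, adjusted p = 0.000314). It was thus read mainly in Sqstm1 KO. Pter had 14.3, 34.2 and 16.6 against 234, 209 and 363 (log2 fold change -3.63, adjusted p = 1.87e-05). Cav1, the main coat protein of caveolae, had 37.3, 39.96 and 25.5 against 139.9, 162 and 125 and 51.8, 53.5 and 72.2 in WT. S100a4, a calcium-binding protein of fibroblasts, had 5.74, 11.4 and 8.92 against 36.8, 51.9 and 62.9, and S100a10, the partner of annexin A2, 33.5, 59.4 and 48.4 against 183, 171 and 408. In these 3 genes the groups were apart and the double KO values also lay below WT. Cd24a, a surface glycoprotein, had 22.9, 35.4 and 36.9 against 131, 112 and 139.9, and Acot7, an acyl-CoA thioesterase, 8.61, 5.71 and 11.5 against 43.9, 44.6 and 69.4. LTO1 fell by 1.88 on the log2 scale, from 2200.1, 1534 and 2163 to 522, 498 and 559; it lies opposite Ccnd1, cyclin D1, which had -0.69 (adjusted p = 0.17). Prss23 (opposite Prss23os), Gask1b, Sertad4, Lor and Arhgdib (opposite Pde6h) had log2 fold changes of -2.10, -2.01, -1.93, -3.03 and -2.69.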

How the data were processed

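RNA sequencing values of 9 libraries, 3 in each of the groups WT, Sqstm1 KO and double KO, were taken with their genotypes from the labels. The authors divided the read counts of genes by a size factor for each library, and the deposited table holds these normalized counts (a signal, not raw reads). STAR, DESeq2 and the build GRCm39 are named in the submitters' processing notes, with no version; kit, strandedness, counter and annotation are not given in the sources used. All 121126 values above 0 (100%) were whole multiples of what 1 read is worth in their library, within 0.01. The reads recovered in this way (819677 to 1467793 a library) served the count tests. Intervals and floors cover counting error only, and a group with no read was given a floor of 3 counts over its libraries.

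The 10118 genes past the filter were tested by limma with its trend option, after taking log2 of each value plus a pseudocount of 1. All 9 libraries entered as 3 groups (14.03 total degrees of freedom, limma's prior included), and the two-sided contrast was double KO minus Sqstm1 KO with Benjamini-Hochberg adjustment at 0.05. Fold changes on this scale understate those of low genes. An exact permutation test of 3 against 3 has a smallest p of 0.1. Alternatives were other pseudocounts and filters, quantile normalization, edgeR, DESeq2 and limma-voom on the recovered reads, the 6 libraries alone, a replicate block and leaving out each library. The fit was tested on simulated data. R was version 4.3.3, with limma 3.58.1; edgeR was version 4.0.16, and DESeq2 was version 1.42.0.

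The comparison and the gene lists were chosen with earlier results of these data known, so lists are given as counts with no test. Genes were named by a rule: Sqstm1 and Nbr1, the 15 largest rises and falls among called genes with non-overlapping values and a higher mean of 50 or more (predicted genes excepted), up to 6 called members of each list in each direction or else its member with the smallest p, the STING pathway and the Y-linked genes. It gave 187 genes, of which 115 are printed with values, picked after these were seen, and another 35 printed genes fall outside it. Opposite-strand exon overlaps came from GENCODE release 21 of the earlier build GRCm38, matched by symbol for 12370 genes (88.2%), and promoters from RefSeq on GRCm38.p6. Promoters of contractile and matrix genes were not printed, and the values of some genes are not reported here.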

Additional observations from a re-analysis of the deposited data

How the results depend on the processing

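The counts of genes called higher and lower (447 and 153) moved by more than 1.5 times under 3 settings: 290 and 62 in the 6 libraries alone, 211 and 80 with a value of at least 50 in 3 libraries, which leaves 3921 genes to test, and 238 higher (130 lower) when the 5494 genes free of opposite-strand exons were tested alone. Interferon effectors called higher were 6 instead of 21 at the filter of 50, where fewer are tested. Leaving out 1 library gave 263 to 566 higher genes, 70 to 211 lower genes and 14 to 22 interferon effectors. The moves past 1.5 times came without double KO replicate 1 (291 and 90), double KO replicate 3 (263 and 70), WT replicate 2 (97 lower) and WT replicate 3 (101 lower). Under pseudocounts of 0.5 and 5, no filter, quantile normalization, edgeR (458 and 156), DESeq2 (517 and 199) and limma-voom (426 and 125) the counts stayed within 1.5 times; edgeR shared 566 and DESeq2 589 of the 600 calls. Of 127 called genes given with values, 110 stayed called in every setting in which they were tested. Signs changed for 3 genes given with values, none of them called, and the cause was not tested. Col1a1 had a log2 fold change of 0.0075 under quantile normalization, 0.042 with edgeR and 0.045 with DESeq2, and -0.52 to 0.39 without single libraries; Sqstm1 ranged from -0.46 to 0.27 and Irf1 from -0.59 to 0.23 without single libraries. A pseudocount of 5 lowered the medians of the GTPases to 1.96 and of acute-phase genes to 1.57. With the replicate number as a block 496 genes were higher and 176 lower, and 583 of the 600 calls were shared; of the called genes named here, Psmd11, Nr2f2, Pik3c3 and Zeb2 lost the call (limma adjusted p = 0.0501, 0.0506, 0.0595 and 0.0595). Deviations from the group means of same-numbered double KO and Sqstm1 KO libraries correlated at 0.145, 0.133 and 0.0627, so the numbers were not taken as pairs. Depth limits the low genes: a group with no read could hold up to 0.957 (Sqstm1 KO) or 1.11 (double KO) normalized counts.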

Other observations

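Some gene families outside the lists of the report also differed between the double KO and Sqstm1 KO; they were chosen after their values were seen, so their counts are descriptions. Of the receptors that share the gp130 chain, Osmr, the oncostatin M receptor, had 102, 179 and 127 in the double KO against 13.3, 18.7 and 22.8 in Sqstm1 KO (log2 fold change 2.83, SE 0.31, adjusted p = 5.80e-05). Lifr, the LIF receptor, had 48.8, 82.2 and 57.3 against 27.6, 18.7 and 8.68 and lost its call without double KO replicate 2 or 3. Il6st, the gp130 chain itself, had 188, 210 and 159 against 165, 212 and 55.3. Its values overlapped and it was not called (log2 fold change 0.56, limma adjusted p = 0.468). Cd274, the checkpoint ligand PD-L1, had 55.5, 34.2 and 52.2 against 7.15, 10.6 and 5.42 and 57.2, 40.7 and 43.7 in WT. Ripk3, the kinase of necroptosis, had 12.4, 28.5 and 17.8 against 1.02, 1.62 and 1.08. Ms4a4d, a neighbour of Ms4a6c, had 21.99, 19.4 and 12.7 against 0, 0.812 and 0. All of these were read at more than 10 in every double KO library.

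On the lower side 1.51% of all tested genes were called. There, 4 of 14 tested S100 and annexin genes were called: S100a4, S100a10, Anxa1 and Anxa3. Their count was 3 or 4 when a library was left out. Anxa1 lost its call in 7 of the 9 fits that left out 1 library, and the other 3 kept theirs in all 9. Anxa3 had 44.9, 34.2 and 38.2 against 98.01, 108 and 193 (log2 fold change -1.68, adjusted p = 0.00263). Of 20 tested cytosolic aminoacyl-tRNA synthetases, which charge tRNAs for translation, 18 had a negative log2 fold change and 4 were called lower. Sars had 43.99, 53.7 and 54.8 against 100.05, 123 and 106 and Aars 111, 105 and 95.5 against 188, 222 and 184. Sars lost its call in 3 of those 9 fits and Aars in 6. The count of synthetases was 5 without Sqstm1 KO replicate 3, 2 without WT replicate 1, WT replicate 3 or double KO replicate 2, 1 without WT replicate 2, Sqstm1 KO replicate 1 or double KO replicate 1, and 0 without Sqstm1 KO replicate 2 or double KO replicate 3. Of 6 tested caveolin and cavin genes Cav1 and Cav2 were lower, Cav2 with 1.91, 14.8 and 8.92 against 24.5, 26.8 and 29.3; Cav2 kept its call in 1 of the 9 fits, that without double KO replicate 2. The gene named TrnE had 66.9, 177 and 102 against 589, 449.6 and 534 and 562, 476 and 409 in WT.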
